A study of Canis lupus familiaris with 12 samples.

Results

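Human DUX4 was set against DUXC-ALT, an isoform of the canine double homeobox factor DUXC, in 6 of the 12 RNA libraries of the series. The members were the 3 libraries whose genotype label names human DUX4 and the 3 whose label names DUXC-ALT. Every library came from immortalized canine myoblasts, the dividing precursor cells of skeletal muscle. The cells carried the lentiviral vector pCW57.1, in which doxycycline switches on the inserted gene. DUX4 cells and DUXC-ALT cells are both tagged as treated with doxycycline, and the protocol gives 1 µg/ml for 24 h, so the 2 groups differ in the labels only by the insert. Used for orientation were 3 libraries with canine DUXC, also tagged as treated, and 3 with luciferase, a reporter enzyme that serves as the control insert. The tag of the luciferase libraries says that no doxycycline was given, whereas the protocol text gives it for all samples, so every distance from luciferase may also hold an effect of the drug. Whether a line was 1 clone or a pool, and whether replicates were separate cultures, is not given in the sources used here. The p-values therefore measure only the spread between these libraries, which may be technical.

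Double homeobox factors bind DNA through a pair of homeodomains. Human DUX4 is active in the early embryo and silent in healthy muscle, and its return in muscle causes facioscapulohumeral muscular dystrophy. In human cells it switches on germline and early embryo genes together with copies of retroviral repeats, through an activating region at its C-terminal end. DUXC is an intron-containing relative found in the dog and other mammals. The direct comparison asks which transcripts separate the human factor from the canine isoform when both are induced in the same cell type.

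The tables as used here carry no gene or repeat names, so a transcript is called by its row number in the DUX4 table, and its identity and genome position are not given. For the same reason no sequence is shown, muscle markers could not be read, and the RNA of the inserted factors themselves was not analysed here. How much of each factor the cells made is thus unknown. Rows with at least 7 luciferase reads hold identical luciferase counts at matching positions of the DUX4 and DUXC-ALT tables. This joined 14736 gene rows and 654 repeat rows. Gene reads per library ranged from 15556477 to 18346979 with DUX4 and from 17300128 to 19992969 with DUXC-ALT. Replicates of these groups correlated at 0.995 to 0.996 on a log scale across joined gene rows, and differed by 1.43 to 1.95 times the sampling noise (chi-square over its degrees of freedom), so none was a copy. Levels are gene reads scaled to a common library total (CPM). Log2 differences are DUX4 minus DUXC-ALT from edgeR, which rescales the libraries, so they can depart slightly from the ratio of CPM.

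With DUX4, 4983 gene rows were higher and 4972 lower than with DUXC-ALT among 13157 tested (edgeR's quasi-likelihood test, adjusted p under 0.05). The called rows made up 75.7% of all tested, with 37.9% higher and 37.8% lower. Numbers so even depend in part on the scaling, which holds the median log2 difference near 0 (-0.01). The sizes were not even. The rows higher with DUX4 had a median log2 difference of 0.74, and the rows lower with DUX4 had a median of -0.37. More than 2-fold, 1937 rows were higher (14.7% of tested) and 239 lower (1.82%). More than 8-fold, 423 rows were higher (3.22%) and 1 was lower. RNA was taken from whole cultures, so more RNA per cell and more cells with the transcript cannot be told apart. For 7123 rows the 95% interval of the log2 difference lay inside 1.5-fold either way, which includes rows whose small difference passed the test.

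**Figure D1:**
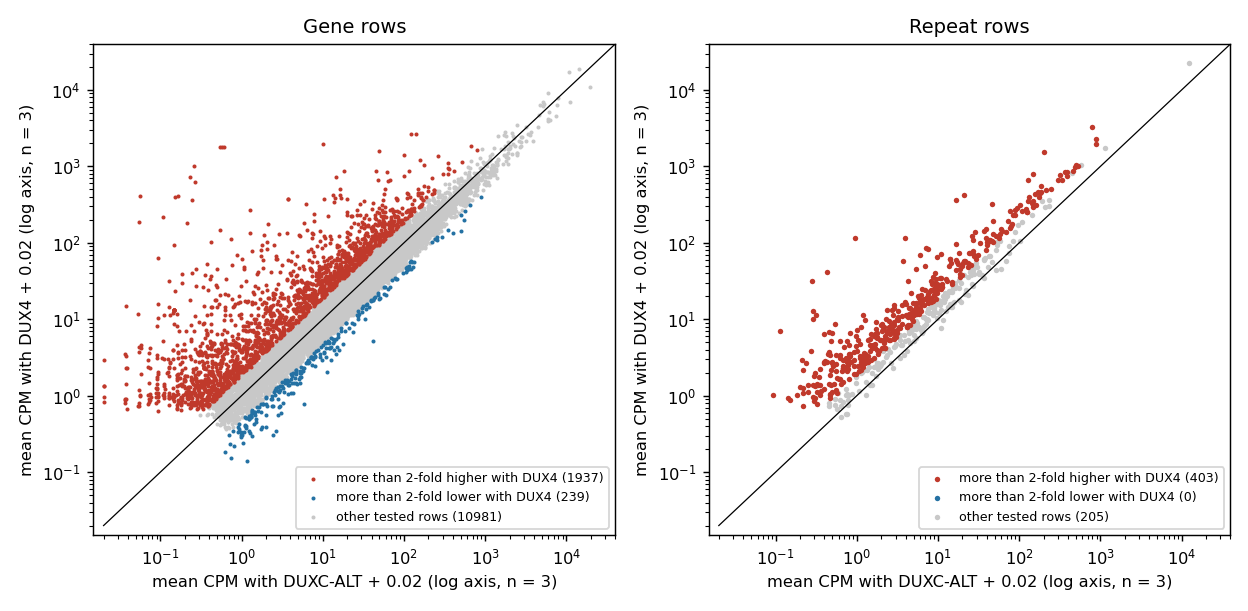
Mean level of each tested gene row (left) and repeat row (right) with DUX4 (vertical axis) against DUXC-ALT (horizontal axis), in CPM plus 0.02 on log axes, with a line at equality. The 1937 gene rows more than 2-fold higher with DUX4 spread far above the line at low DUXC-ALT levels, and the 239 lower rows stay close to it. Of the 608 repeat rows tested, edgeR called 0 more than 2-fold lower.

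The rows with the largest gaps were near silent with DUXC-ALT and among the well expressed rows with DUX4. Gene row 1722 stood at 397.5, 413.5 and 408.5 CPM in the DUX4 libraries, against 0, 0 and 0.107 CPM in the DUXC-ALT libraries. That was 20237 reads against 2, a ratio of 11387 with an exact 95% interval of 3152 to 94032 that covers counting error only. The groups did not overlap, and the log2 difference was 13.29 ± 0.090 (SE). Gene row 5519 stood at 190.1, 188.3 and 185.3 CPM with DUX4, against 1, 0 and 1 read in the DUXC-ALT libraries. Its 9348 reads against 2 gave a ratio of 5260, with an exact interval of 1456 to 43439. Gene row 2663 stood at 980.7, 1043 and 975.7 CPM with DUX4, against 1, 4 and 8 reads in the DUXC-ALT libraries. The log2 difference was 12.11 ± 0.064 (SE), with an adjusted p of 2.94e-136 in edgeR. With so few DUXC-ALT reads the sizes of rows 1722 and 2663 are less certain than these SEs. Without DUXC-ALT replicate 3 the log2 difference of row 2663 was 12.86, and row 1722 had no DUXC-ALT read left to set its size. In each of these 3 rows all DUX4 libraries were high and all DUXC-ALT libraries were at trace level.

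The other 7 of the 10 largest rises ranged from 392.5 to 1791 CPM in DUX4 cells and from 0.131 to 0.592 CPM with DUXC-ALT, with no overlap in any row, as the choice of rows required. Gene rows 2647, 2521 and 13347 were the highest of them, at 1791 ± 19.9, 1770 ± 9.85 and 1776 ± 29.2 CPM with DUX4 (SD, n = 3). With DUXC-ALT the same rows stood at 0.529 ± 0.465, 0.554 ± 0.155 and 0.592 ± 0.286 CPM (SD, n = 3). The wide spread of row 2647 with DUXC-ALT came from 11, 17 and 1 reads. Its log2 difference was 11.82 ± 0.098 (SE), and 12.53 without DUXC-ALT replicate 2. Here too the size is less certain than the SE. Leaving out 1 library also moved row 13826, with 11.74, to 12.38 (without DUXC-ALT replicate 3) and row 2992, with 11.62, to 11.00 or 12.25 (without DUXC-ALT replicate 1 or replicate 2). These traces were of the size seen with luciferase, at 0.6 ± 0.104 CPM for row 2647, 0.828 ± 0.255 for row 2521 and 0.508 ± 0.108 for row 13347 (SD, n = 3). For these rows the log2 difference of DUXC-ALT from luciferase was -0.28 ± 0.45, -0.63 ± 0.37 and 0.13 ± 0.41 (SE), none past the edgeR threshold.

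The DUXC libraries separated these rows. Row 8797 stood at 617.0 ± 21.6 CPM with DUX4, 0.245 ± 0.135 with DUXC-ALT, 494.9 ± 7.10 with DUXC and 0.301 ± 0.0749 in luciferase cells (SD, n = 3), so DUXC came close to DUX4. Row 2663 stood at only 20.6 ± 0.630 CPM with DUXC, and row 2992 at 392.5 ± 23.4 with DUX4, 0.131 ± 0.118 with DUXC-ALT and 13.2 ± 0.986 with DUXC (SD, n = 3). All 10 rows were higher with DUXC than with luciferase by edgeR, with log2 differences of 5.99 to 10.60, whereas 36.5% of gene rows tested in both comparisons were. The DUXC and luciferase libraries took no part in choosing these rows beyond the joining through luciferase counts.

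**Figure D2:**
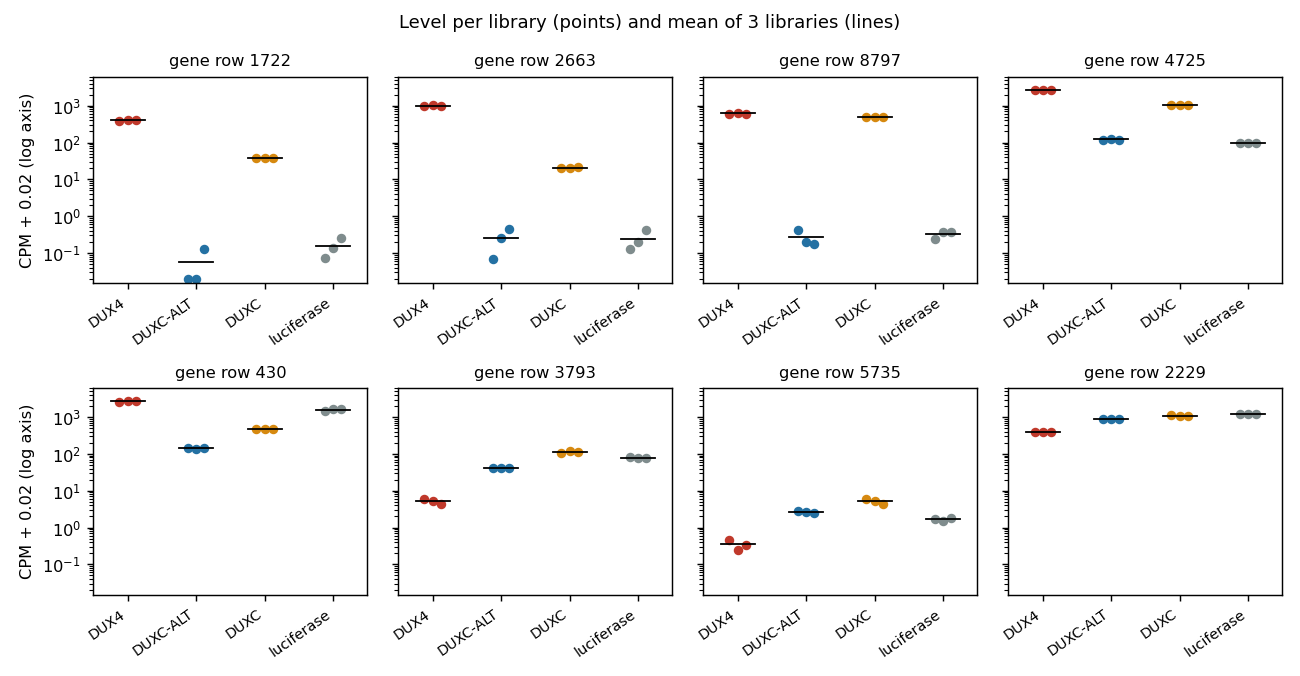
Level of 8 named gene rows in each library (points) and the mean of 3 libraries (lines), in CPM plus 0.02 on a log axis, for DUX4, DUXC-ALT, DUXC and luciferase. Rows 1722, 2663 and 8797 are at trace level with DUXC-ALT and luciferase, row 430 is lowest with DUXC-ALT, and rows 3793, 5735 and 2229 are lowest with DUX4.

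Among rows of high abundance, the difference could come from either side of the luciferase level. Gene row 430, the most abundant of the rows more than 2-fold higher, stood at 2642, 2685 and 2703 CPM in the DUX4 libraries, against 143.6, 135.3 and 142.7 in the DUXC-ALT libraries. The log2 difference was 4.33 ± 0.023 (SE), at an adjusted p of 1.73e-273 in edgeR. DUXC cells held 477.1 ± 12.7 CPM and luciferase cells 1566 ± 114 CPM of this row (SD, n = 3). Against luciferase, the row rose with DUX4 by a log2 of 0.76 ± 0.044 and fell by 3.55 ± 0.060 on the log2 scale with DUXC-ALT (SE). These 2 comparisons share the luciferase libraries. In them DUX4 raised 38.4% and lowered 35.8% of all gene rows tested, and DUXC-ALT raised 25.6% and lowered 25.7%. Gene row 4725 stood at 2680, 2632 and 2638 CPM with DUX4, against 120.9, 128.0 and 119.5 with DUXC-ALT. The log2 difference was 4.51 ± 0.024 (SE), at an adjusted p of 4.67e-276 in edgeR. Here luciferase, at 97.3 ± 2.60 CPM (SD, n = 3), lay near DUXC-ALT. Gene row 7227 stood at 1867 ± 35.2 CPM in DUX4 cells and 669.9 ± 16.6 CPM in DUXC-ALT cells, beside 600.4 ± 14.4 CPM with luciferase (SD, n = 3).

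Rows lower with DUX4 had smaller gaps, and the 10 largest falls were mostly at low levels. Gene row 3793 was the clearest, with 95, 97 and 69 reads in the DUX4 libraries, against 809, 710 and 779 reads in the DUXC-ALT libraries, or 5.24 ± 0.782 CPM in DUX4 cells and 41.1 ± 0.614 CPM in DUXC-ALT cells (SD, n = 3). The log2 difference was -2.89 ± 0.081 (SE), at an adjusted p of 7.70e-100 in edgeR. DUXC cells held 112.5 ± 4.26 CPM and luciferase cells 79.7 ± 4.28 CPM (SD, n = 3), so both DUX4 and DUXC-ALT lay below luciferase, by -3.93 ± 0.073 and -1.03 ± 0.046 on the log2 scale (SE), past the edgeR threshold. Gene row 11145, the only row lower by more than 8-fold, rested on few reads, with 6 over the DUX4 libraries and 64 over the DUXC-ALT libraries. Its log2 difference was -3.09 ± 0.50 (SE), at an adjusted p of 4.67e-09 in edgeR. Leaving out DUXC-ALT replicate 3 took the count of such rows to 0, and leaving out DUX4 replicate 1 or DUX4 replicate 2 took it to 3. The other 8 of the 10 largest falls ranged from 0.287 to 2.03 CPM in DUX4 cells and from 1.78 to 11.4 CPM with DUXC-ALT, with log2 differences of -2.92 to -2.20. Among them row 8888 went to -3.81, against -2.91, without DUX4 replicate 2. Gene row 11143 led them in level, at 1.89, 1.64 and 2.57 CPM with DUX4, against 10.7, 10.9 and 12.6 CPM with DUXC-ALT. DUXC, at 12.2 ± 0.477 CPM, and luciferase, at 10.1 ± 1.88 CPM (SD, n = 3), were near the DUXC-ALT level.

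The most abundant rows that were more than 2-fold lower changed less. Gene row 2229 stood at 394.0 ± 0.716 CPM in DUX4 cells and 885.2 ± 12.2 CPM in DUXC-ALT cells (SD, n = 3). The log2 difference was -1.09 ± 0.021 (SE), at an adjusted p of 6.01e-135 in edgeR. Gene row 9950 stood at 264.6 ± 6.77 CPM with DUX4, 568.2 ± 9.23 with DUXC-ALT, 283.0 ± 11.1 with DUXC and 548.7 ± 8.44 in luciferase cells (SD, n = 3). Its DUXC level was thus near DUX4, while row 2229 was near DUXC-ALT with DUXC, at 1097 ± 34.1 CPM (SD, n = 3). Gene row 9258 lay at the 2-fold limit, with 309.3 ± 8.74 CPM in DUX4 cells and 654.1 ± 12.7 CPM in DUXC-ALT cells (SD, n = 3). When the difference was tested against 2-fold instead of 0, 1509 rows were higher and 97 lower. The 3 most abundant rows of all moved by less than 2-fold. Gene row 12878 stood at 18738 ± 304 CPM in DUX4 cells and 14165 ± 200 CPM in DUXC-ALT cells (SD, n = 3). Gene row 8874 stood at 10938 ± 133 CPM in DUX4 cells and 19440 ± 147 CPM in DUXC-ALT cells, and gene row 9149 at 16941 ± 99.6 in DUX4 cells and 10678 ± 78.5 in DUXC-ALT cells (SD, n = 3).

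The level of a row in luciferase cells, which entered neither side of the difference, went with its size. Joined gene rows under 1 CPM with luciferase had a median log2 difference of 0.78 over all 2587 with a read, before any filter on low counts. The median was 0.10 over 3441 rows at 1 to 10 CPM, -0.08 over 6903 rows at 10 to 100 CPM and -0.18 over 1794 rows at 100 CPM or more. Over all joined rows with a read it was 0.00. At the lowest level 631 rows were more than 2-fold higher among 1068 that passed the filter, which a row could pass through its DUX4 reads alone. At the next levels 672 of 3392, 577 of 6903 and 57 of 1794 tested rows were higher by that much. The summed level of the rows under 1 CPM was 13328, 13700 and 13302 CPM in the DUX4 libraries, against 944.4, 960.7 and 951.2 CPM in the DUXC-ALT libraries. That was 14.1 times as high, with no overlap, at p = 0.1 in a 2-sided exact permutation test, the smallest that 3 against 3 libraries can give (0.1 after adjustment over 6 such tests). The sum was 1.66 times as high at 1 to 10 CPM and 1.12 times at 10 to 100 CPM. At 100 CPM or more it was 641096 ± 473 CPM in DUX4 cells and 701144 ± 590 CPM in DUXC-ALT cells (SD, n = 3), a ratio of 0.914. These 3 also gave p = 0.1 in the exact permutation test. The sums of a library add up to a fixed total, so they are not independent of each other.

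**Figure D3:**
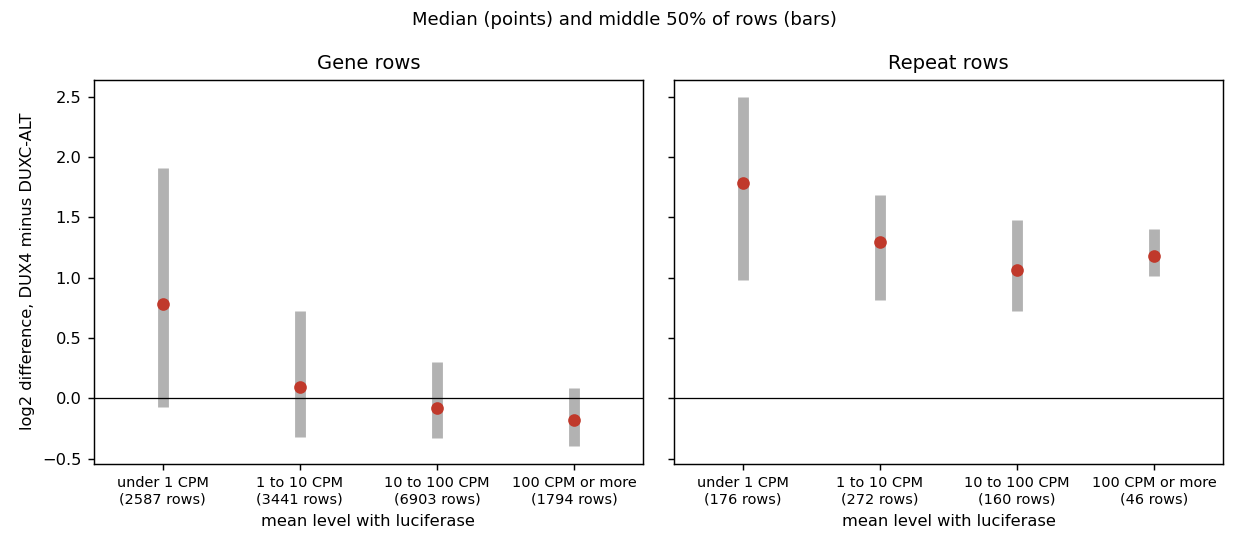
Log2 difference of DUX4 minus DUXC-ALT for joined gene rows (left) and repeat rows (right) with a read, grouped by mean level in luciferase cells, with medians as points and the middle 50% of rows as bars. Gene medians go from 0.78 in the lowest group to -0.18 in the highest, and repeat medians stay between 1.07 and 1.78.

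Rows that could not be joined, because luciferase cells held fewer than 7 reads, were summed separately for each table. Those of the DUX4 table held 3004, 2997 and 3020 CPM in the DUX4 libraries. Those of the DUXC-ALT table held 99.6, 96.8 and 91.4 CPM in the DUXC-ALT libraries. The ratio was 31.4, with p = 0.1 in the exact permutation test. The sums cover different rows, each listed only because the same factor added reads. The test therefore cannot separate a difference between the factors from this choice of rows. Reads of rows too scarce to be listed are missing from both sums. DUXC-ALT reads of rows listed only for DUX4 are among them, so the ratio may be too large. The DUX4 table listed 2334 gene rows with fewer than 7 luciferase reads, and the table for DUXC-ALT had 892. A table lists only rows with at least 7 reads over its 6 libraries. For 1572 of the 2334, no DUXC-ALT row with the same luciferase counts stood between the same joined neighbours, so luciferase and DUXC-ALT together held under 7 reads. Of these, 174 had 1 CPM or more in all 3 DUX4 libraries, and their median level was 2.77 CPM. In the other direction, 133 DUXC-ALT rows had no DUX4 partner, and 0 of them reached 1 CPM in every DUXC-ALT library.

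The highest of these rows was gene row 15046, at 187.4, 183.5 and 179.5 CPM in the DUX4 libraries. It had 4 luciferase reads and so at most 2 DUXC-ALT reads, and was at least 3424-fold higher with DUX4, taking 3 counts over the DUXC-ALT libraries as the floor. Gene rows 13299, 14480, 12641 and 14381 followed at 123.6 ± 4.01, 112.2 ± 1.88, 110.7 ± 3.65 and 109.4 ± 1.61 CPM with DUX4 (SD, n = 3), each at least 1533-fold higher. The highest in the other direction was row 9232 of the DUXC-ALT table, with 1, 3 and 17 DUXC-ALT reads, nearly all in 1 library. Row 13304 of that table had 7, 4 and 8 DUXC-ALT reads and was at least 2.81-fold higher there than with DUX4.

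Luciferase mostly lay at the DUXC-ALT side of the large differences. On the log2(CPM + 0.1) scale, luciferase was nearer to DUXC-ALT in 1734 of the 1937 rows more than 2-fold higher with DUX4. Their median levels were 16.2 CPM with DUX4, 2.96 with DUXC-ALT and 3.20 in luciferase cells. In the other 203 rows luciferase was nearer to DUX4, with medians of 2.45 CPM with DUX4, 0.792 with DUXC-ALT and 2.33 in luciferase cells. Of the 239 rows more than 2-fold lower with DUX4, 188 had luciferase nearer to DUXC-ALT and 51 nearer to DUX4. The 1937 rows together took 12.9% ± 0.0868 of gene reads with DUX4, 3.19% ± 0.0109 with DUXC-ALT, 9.36% ± 0.033 with DUXC and 3.47% ± 0.0143 in luciferase cells (SD, n = 3). The DUX4 and DUXC-ALT shares restate how the rows were chosen and carry no test. The medians of the 1734 and 203 rows likewise follow from the split by nearness. Over all 1937 rows the median was 2.91 CPM in luciferase cells, 12.7 with DUX4 and 2.27 with DUXC-ALT.

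DUXC minus luciferase shares no library with DUX4 minus DUXC-ALT, so the 2 differences could be set side by side. Of the 1937 rows more than 2-fold higher with DUX4, 1753 were also tested for DUXC. DUXC raised 1400 of them (79.9%) and lowered 129 (7.36%), with a median log2 difference of 1.14. Over all 12896 gene rows tested in both, DUXC raised 36.5% and lowered 39.1%, with a median of -0.03. Without the filter on low counts, 73.2% of the 1937 were raised, with a median of 1.03. Of 234 tested rows more than 2-fold lower with DUX4, DUXC lowered 120 (51.3%) and raised 58 (24.8%), with a median of -0.31. On the log2(CPM + 0.1) scale, DUXC was nearer to DUX4 in 1291 of the 1937 higher rows, with medians of 14.8 CPM with DUX4 and 14.5 with DUXC. In the other 646 the medians were 8.20 CPM with DUX4, 1.59 with DUXC-ALT and 2.45 with DUXC. The split was made on these same levels, so its medians only describe it. Over all 1937 rows the medians were 12.7 CPM with DUX4, 2.27 with DUXC-ALT and 9.02 with DUXC. Of the 239 lower rows, DUXC was nearer to DUXC-ALT in 152. Across the 12896 rows the 2 differences had a Pearson r of 0.69 and a Spearman rho of 0.61. Rows are not independent replicates, and they share the counting and the joining through luciferase.

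**Figure D4:**
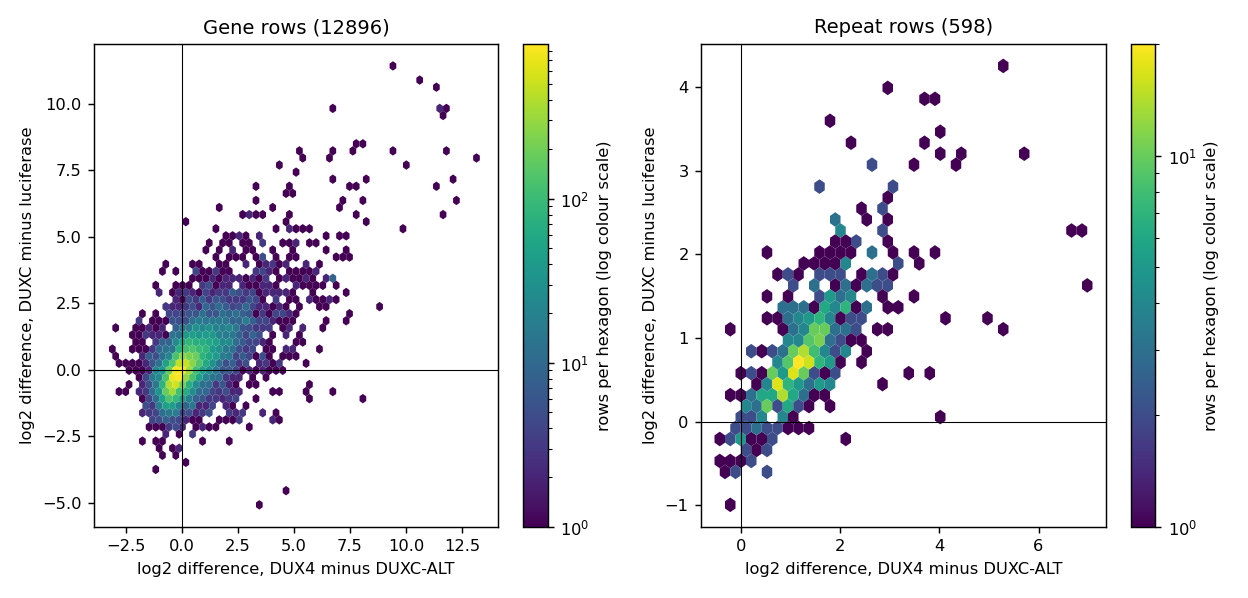
Log2 difference of DUXC minus luciferase (vertical axis) against DUX4 minus DUXC-ALT (horizontal axis) for gene rows (left) and repeat rows (right), as the number of rows per hexagon on a log colour scale. Rows far to the right mostly lie high, and the few rows far to the left are spread about 0.

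A repeat row counts reads over annotated interspersed repeats, sequences mostly of transposon and retrovirus origin. Most repeat rows were higher with DUX4 than with DUXC-ALT when scaled by gene reads. Repeat reads per 100 gene reads were 6.81, 6.68 and 7.33 in the DUX4 libraries, against 3.23, 3.52 and 2.81 in the DUXC-ALT libraries, 2.18 times as many. The groups did not overlap, at p = 0.1 in the 2-sided exact permutation test, the smallest possible. Luciferase stood at 3.49 ± 0.0447 (SD, n = 3). Row by row, 557 repeat rows were higher and 4 lower among 608 tested (edgeR, adjusted p under 0.05), or 91.6% and 0.658%, and 92.3% in either direction. More than 2-fold lower were 0 rows in edgeR, 0 at an unadjusted p under 0.05 and 0 in DESeq2. The median log2 difference was 1.30, with 403 rows more than 2-fold higher (66.3%) and 32 more than 8-fold higher (5.26%). That direction is relative to gene reads. Scaled on the repeat counts themselves, 213 rows were higher and 221 lower, so the higher share of calls went to 49.1%, against 99.3% with gene scaling, and the median to 0.01.

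The repeat rows with the largest gaps were scarce with DUXC-ALT and with luciferase. Repeat row 97 stood at 121.0, 105.8 and 116.0 CPM in the DUX4 libraries, against 1.10, 0.925 and 0.803 CPM in the DUXC-ALT libraries. Its log2 difference was 6.98 ± 0.091 (SE) with gene scaling and 5.70 with repeat scaling. DUXC held it at 4.76 ± 0.905 CPM and luciferase at 0.936 ± 0.494 CPM (SD, n = 3). With DUXC it was thus nearer to DUXC-ALT than to DUX4, yet above luciferase by a log2 of 2.30 ± 0.25 (SE), past the edgeR threshold. Repeat rows 147 and 139 stood at 32.1 ± 1.85 and 41.5 ± 1.18 CPM with DUX4 and at 0.263 ± 0.133 and 0.411 ± 0.108 CPM with DUXC-ALT, and DUXC held them at 1.39 ± 0.483 and 1.15 ± 0.0619 CPM (SD, n = 3). Repeat row 698 differed from these, at 10.2 ± 0.832 CPM with DUX4, 0.273 ± 0.114 with DUXC-ALT and 7.44 ± 1.36 with DUXC (SD, n = 3). Repeat rows 29 and 697, the rest of the 6 largest, stood at 6.90 and 13.0 CPM with DUX4 and 0.0923 and 0.273 CPM with DUXC-ALT. Row 29 had 5 DUXC-ALT reads, and its log2 difference of 6.23 ± 0.31 (SE) was 6.93 without DUXC-ALT replicate 2. For repeat rows 97 and 29, with 53 and 5 DUXC-ALT reads, the size is less certain than the SE. Under repeat scaling the log2 differences of the 6 rows were 4.02 to 5.70.

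Among repeat rows that could not be joined, repeat row 35 had 656, 730 and 644 reads in the DUX4 libraries and none with luciferase. DUXC-ALT held at most 6 reads, so the row was at least 380.7-fold higher with DUX4. Repeat row 5 had 620, 912 and 752 DUX4 reads and at most 3 DUXC-ALT reads, and was at least 856.8-fold higher. Repeat row 245, with 527, 699 and 520 DUX4 reads, was at least 655-fold higher. In the DUXC-ALT table, 2 repeat rows had no DUX4 partner, each with 6 DUXC-ALT reads and 1 luciferase read.

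The 3 most abundant repeat rows rose by less than those 6, and the first of them, row 335, was the least certain of the 3. Repeat row 335 stood at 20291, 21144 and 26040 CPM in the DUX4 libraries, against 12665, 14781 and 9156 CPM in the DUXC-ALT libraries. The groups did not overlap but both were wide, and the log2 difference was 0.96 ± 0.23 (SE), at an adjusted p of 0.0159 in edgeR. The call was lost with the replicate block (adjusted p = 0.096) and without DUX4 replicate 3 (0.0505) or DUXC-ALT replicate 1 (0.0526) in edgeR, and under repeat scaling the log2 difference was -0.32 (edgeR adjusted p = 0.26). Over all alternatives its adjusted p ranged from 2.95e-05 (DESeq2) to 0.26. Repeat row 234 stood at 3329 ± 112 CPM with DUX4, 792.8 ± 13.2 with DUXC-ALT, 3004 ± 96.4 with DUXC and 802.7 ± 16.4 in luciferase cells (SD, n = 3). Its log2 difference was 2.15 ± 0.037 (SE), and 0.87 under repeat scaling. Repeat row 655 stood at 2252 ± 178 CPM with DUX4, 894.0 ± 32.1 with DUXC-ALT and 844.0 ± 61.8 in luciferase cells (SD, n = 3), and its log2 difference of 1.41 ± 0.036 (SE) went to 0.13 under repeat scaling, where it missed the threshold (edgeR adjusted p = 0.0971, the highest over its alternatives, the lowest being 4.22e-294).

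**Figure D5:**
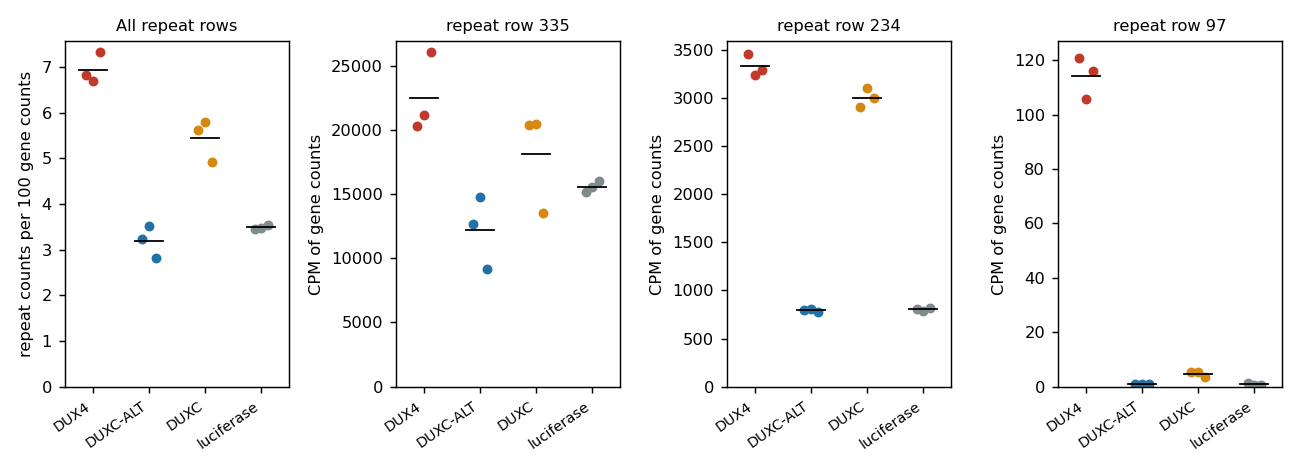
Repeat reads per 100 gene reads (left panel) and level of repeat rows 335, 234 and 97 in CPM of gene reads, per library (points) with the mean of 3 libraries (lines), for DUX4, DUXC-ALT, DUXC and luciferase, on axes that start at 0. Row 335 varies widely between libraries of a factor, and row 234 is as low with DUXC-ALT as with luciferase.

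The 4 repeat rows lower with DUX4 differed little relative to gene reads. Repeat row 633 stood at 7.45, 7.41 and 7.97 CPM in the DUX4 libraries, against 10.7, 9.42 and 12.4 CPM in the DUXC-ALT libraries. The log2 difference was -0.43 ± 0.11 (SE), at an adjusted p of 5.03e-05 in edgeR. Repeat rows 465, 454 and 480 had log2 differences of -0.32, -0.16 and -0.15. Under repeat scaling rows 633, 465, 454 and 480 were more than 2-fold lower, with log2 differences of -1.72, -1.60, -1.45 and -1.43. In row order 633, 465, 454 and 480, DUXC-ALT cells held 10.8, 60.0, 68.9 and 52.3 CPM and luciferase cells 12.9, 64.9, 73.8 and 70.8 CPM, so DUXC-ALT lay below luciferase in all 4, past the edgeR threshold. By luciferase level, repeat rows had medians of 1.78 under 1 CPM (176 rows), 1.29 at 1 to 10 CPM (272 rows), 1.07 at 10 to 100 CPM (160 rows) and 1.18 at 100 CPM or more (46 rows), without a filter. Of the 403 repeat rows more than 2-fold higher with DUX4, luciferase was nearer to DUXC-ALT in 401 and DUXC nearer to DUX4 in 339. DUXC raised 371 of the 396 tested (93.7%) and lowered 0 against luciferase by edgeR (0 at an unadjusted p under 0.05), beside 82.6% and 2.68% of all 598 repeat rows tested in both. Under repeat scaling it raised 46.8% and lowered 9.97% of the 391 tested, beside 33.6% and 28.9% of all 592 repeat rows tested in both.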

How the data were processed

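Polyadenylated RNA of 12 canine myoblast libraries, grouped by the insert named in the genotype tag, was made into libraries with the TruSeq RNA v2 kit, per the labels' protocols. The submitters' processing notes list the build canFam3 and the tools Bowtie2 2.2.6, TopHat2 2.1.0, DESeq2 and CASAVA without saying what each did. The counting tool, its use of strand and its treatment of multiply matching reads were not given in the sources used here, so reads of near-identical or overlapping genes and repeat copies may be shared between rows. The authors deposited raw read counts per gene row and repeat row, which were used as deposited; the normalized tables were not used. Gene counts were tested with edgeR 4.0.16 (R 4.3.3): TMM scaling, filterByExpr, robust quasi-likelihood fit, Benjamini-Hochberg adjustment over all tested rows at 0.05, on the 6 libraries compared, with no block. Repeat counts used the effective gene library sizes. Each SE of a log2 difference was worked back from that difference and its quasi-likelihood test statistic. In rows with few reads in a group it can be smaller than counting error. Per-library values were compared with 2-sided exact permutation tests (scipy 1.17.1). Intervals and floors (3 counts over a group) cover counting error only. Named gene rows were the 10 largest differences in each direction (no overlap, at least 1 CPM), the 3 most abundant beyond 2-fold in each direction and the 3 most abundant of all. Named repeat rows were the 6 largest in each direction (at least 20 counts) and the 3 most abundant. Up to 5 unjoined DUX4 rows and 2 unjoined DUXC-ALT rows were added. Members and rules were chosen with earlier results of these data known. The fits were also run on simulated counts in which few rows changed, equally in both directions and with 1 fixed spread. That setting differs from these data, where most rows were called and the large differences lay mostly on 1 side. Alternatives covered scaling, filter, test, join, samples, block and each library left out.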

Additional observations from a re-analysis of the deposited data

Results flagged for a closer look

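Named gene rows 430, 5735, 10986 and 5644 stood out because the 2 factors moved them in opposite directions from luciferase, each past the edgeR threshold, and the direct difference also passed. These rows were named for a large or abundant direct difference, so that test is not independent evidence, and both distances share the luciferase libraries. Gene row 430 had a direct log2 difference of 4.33 ± 0.023 (SE), with 0.76 ± 0.044 for DUX4 and -3.55 ± 0.060 for DUXC-ALT against luciferase. Its neighbour in the table, gene row 431, chosen after its values were seen, had 4.27 ± 0.055, with 0.74 ± 0.042 for DUX4 and -3.51 ± 0.069 for DUXC-ALT. Row 431 averaged 135.7 ± 4.62 CPM in DUX4 cells, 7.42 ± 0.307 in DUXC-ALT cells, 25.2 ± 0.975 in DUXC cells and 80.5 ± 6.88 in luciferase cells (SD, n = 3). Whether the 2 rows share reads was not tested.

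The other 3 rows went the opposite way and were scarce. Gene row 5735 had a direct log2 difference of -2.92 ± 0.32 (SE), with -2.34 ± 0.35 for DUX4 and 0.60 ± 0.21 for DUXC-ALT, and 16 reads over the DUX4 libraries against 147 over the DUXC-ALT libraries. Gene row 10986 had -2.28 ± 0.27, with -1.71 ± 0.30 for DUX4 and 0.59 ± 0.20 for DUXC-ALT, from 29 reads against 170. Gene row 5644 had -2.20 ± 0.35, with -1.34 ± 0.39 for DUX4 and 0.88 ± 0.27 for DUXC-ALT, from 18 reads against 100. With DUXC, row 5735 stood at 5.25 ± 0.855 CPM and row 10986 at 4.77 ± 0.164 CPM, above every other group, and row 5644 at 0.993 ± 0.181 CPM (SD, n = 3).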

How the results depend on the processing

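Of the summary values under the alternatives run, 273 were labelled as kept and 16 as moved. For counts and percentages, kept meant within 1.5-fold of the main value. For the ratios of per-library values it meant the same direction only, and for the DUXC medians the same direction and a similar size. Of the other medians and single named rows, 693 kept their call, 4 lost it, 1 reversed and 2 moved. Scaled on repeat counts, 213 repeat rows were higher and 221 lower, 79 and 46 of them beyond 2-fold, 10 beyond 8-fold higher and 205 bounded within 1.5-fold. Under the same scaling DUXC raised 46.8% of the 391 tested repeat rows that were more than 2-fold higher with DUX4 (median log2 0.27), beside 33.6% of all 592 (median 0.01), and repeat row 335 reversed to -0.32. Repeat rows lower with DUX4 numbered 7 with gene totals, 9 with gene plus repeat totals and 4 to 7 with a library left out, and 1 was beyond 2-fold lower without the filter. A test against 2-fold left 97 lower gene rows. Rows beyond 8-fold higher numbered 423 of 13157 tested in the main fit. They numbered 260 of 12632 among rows with unique luciferase counts and 269 of 12845 among rows with at least 20 luciferase reads. The 8-fold count thus fell more steeply than the number of rows tested. Upper-quartile scaling shifted the median gene log2 to -0.10, with 4293 rows higher and 5893 lower. Taken at any fold, the DUXC median in higher rows was 0.48. Without the most abundant repeat row the repeat ratio was 2.39. The cause of these shifts was not tested.

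Same-numbered libraries of the 2 groups did not visibly deviate together (correlations of -0.00996, 0.0183 and 0.00298). With 3 libraries per group and much sampling noise, this cannot exclude that the numbers mark a shared culture or preparation. With the replicate block, 4958 gene rows were higher and 4941 lower, and 555 repeat rows higher and 4 lower. Rows scarce in luciferase cells could not be joined.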
